A study of Canis lupus familiaris with 27 samples.

Results

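Expression in mammary carcinomas of 13 older dogs, of 12 years or more, was compared with that in carcinomas of 14 younger dogs, of 11 years or less. These 27 tumors were the whole series, and each dog entered its age group by the age in the sample labels. Lymph node status at resection was held as a covariate, because 7 of the 13 older dogs and 6 of the 14 younger dogs had lymph node metastases. The genes measured were 15115, each read by the probe set of highest mean level.

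The older metastatic group held 7 dogs of 12 to 16 years, with a median of 15 years. The younger metastatic group held 6 dogs of 9 to 11 years, with a median of 10 years. The older non-metastatic group held 6 dogs of 12 to 15 years, with a median of 12.5 years, and the younger non-metastatic group held 8 dogs of 9 to 11 years, with a median of 10.5 years. Single dogs are named by a number from 1 to 27. Non-metastatic here means without lymph node metastases at resection. Dog 22, of the older non-metastatic group, later developed lung metastases. All tumors were simple carcinomas, negative for oestrogen receptor alpha by immunohistochemistry, and were macrodissected to a high share of carcinoma cells. RNA of each tumor was hybridised to 1 canine oligonucleotide array, and levels are given on the log2 scale of the deposited values, where a difference of 1 is a doubling. Each tumor came from a different dog, and age was observed and not assigned, so that p-values measure the spread between dogs.

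Other properties of the dogs and arrays were compared between the age groups. Among metastatic tumors, 5 of 7 in older dogs and 1 of 6 in younger dogs were of histologic grade II, the others being of grade III (two-sided Fisher's exact test, p = 0.103). Among non-metastatic tumors, 1 of 6 in older dogs and 4 of 8 in younger dogs were of grade II (two-sided Fisher's exact test, p = 0.301). All 5 dogs of the breeds Dachshund, West Highland White Terrier, French Bulldog and Miniature Pinscher were older. These breeds were picked as small ones, and the breed Pudel occurred in both age groups. Tumor size averaged 4.19 ± 3.87 cm in older dogs and 3.57 ± 2.03 cm in younger dogs (SD, n = 13 and 14, two-sided permutation test within lymph node groups, p = 0.415, adjusted p = 0.519 over 5 sample measures). For tumor size on the log2 scale the permutation p was 0.995. The upper quartile of the array was 7.82 ± 0.16 in older dogs and 7.86 ± 0.12 in younger dogs (permutation p = 0.141, adjusted p = 0.354), and its lowest group mean, 7.69, was that of the older non-metastatic tumors. The actin 3′ to 5′ difference averaged -0.72 in older and -0.23 in younger metastatic tumors, and -0.39 and -0.48 in non-metastatic ones (permutation p = 0.254, adjusted p = 0.423). That of GAPDH averaged 0.052 and 0.094 in metastatic and 0.0049 and 0.12 in non-metastatic tumors, older first (permutation p = 0.141, adjusted p = 0.354). Lymph node adjusted fits were also run without the 5 small-breed dogs and with grade, array upper quartile or GAPDH difference as a covariate. At an unadjusted p below 0.05 (limma), they had 368 higher and 440 lower genes, 365 and 659, 493 and 662, and 366 and 610. The main fit had 363 higher and 638 lower. No gene passed an adjusted p of 0.05 in any of these fits. In the differences below, the parts of grade, breed, array level and 3′ to 5′ difference were not tested beyond these and later named fits.

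The normal mammary gland is built of inner luminal cells, which make milk, and outer myoepithelial cells, which contract. Luminal identity is held by transcription factors such as GATA3 and FOXA1. Prolactin, through its receptor and the transcription factor STAT5, switches on the milk protein genes. Ageing tissues are known for the build-up of arrested, senescent cells, marked by cell cycle inhibitors and by a set of secreted factors. The luminal marker list was present as the tissue label implies: all 17 measured genes averaged above the array median of 3.66, with EPCAM, an epithelial adhesion molecule, at 13.59 and KRT8, a luminal keratin, at 12.55. Fewer cells of a type and less RNA per cell cannot be told apart in such bulk samples.

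No gene passed an adjusted p of 0.05 between older and younger dogs with lymph node status held (0 of 15115 genes, 0%, limma with Benjamini-Hochberg adjustment). The lowest adjusted p was 0.208. At an unadjusted p below 0.05 there were 1001 genes, which is 6.62% of those tested. Of these, 363 (2.40%) were higher and 638 (4.22%) were lower in older dogs. In data simulated for the same design, the same fit recovered 72 of 100 genes changed by 1 and 94 of 100 genes changed by 2 on the log2 scale. It also called 8 unchanged genes. The simulated noise was normal and independent between probe sets, and the changed genes were drawn from all genes, whatever their spread. Both sets of 100 were changed in the same simulated data, and recovery with fewer changed genes was not measured. Recovery was not measured for genes of large spread between dogs, such as many of those below. The genes below are given by their measured values, none of them past the adjusted threshold in the comparison of the 2 age groups.

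The genes of smallest p that were lower in older dogs, in metastatic and in non-metastatic tumors alike, were led by CCDC30, a coiled-coil protein. The level of CCDC30 ran from 5.15 through a median of 6.71 to 8.46 in older dogs, against 7.05, 8.60 and 9.79 in younger dogs. All 13 older dogs lay below the median of the younger dogs, although the ranges overlapped. The adjusted difference was -1.69 ± 0.34 (SE, limma adjusted p = 0.208). It was -1.72 in metastatic and -1.66 in non-metastatic tumors. Of the other 5 CCDC30 probe sets, 3 had differences of -1.72, -1.10 and -0.45, and the remaining 2 were near 0 at levels below the array median.

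MYB, a transcription factor that oestrogen signalling sustains in human breast epithelium, was the next. Its level ran from 2.11 through 3.42 to 5.15 in older dogs, against 3.10, 6.27 and 6.71 in younger dogs, a difference of -1.98 ± 0.40 (SE, limma adjusted p = 0.208). Of the 27 tumors, 10 lay below the array median for MYB. In the non-metastatic tumors alone, 5 of the 6 older dogs lay below all 8 younger dogs. The difference was -1.38 in metastatic and -2.54 in non-metastatic tumors.

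TARS3, a threonyl-tRNA synthetase, ran from 3.42 through 4.47 to 6.84 in older dogs, against 5.01, 6.97 and 7.52 in younger dogs, with a difference of -1.77 ± 0.38 (SE, limma adjusted p = 0.251). STAT5A, the prolactin-activated transcription factor, ran from 6.87 through 8.46 to 10.35 in older dogs, against 8.19, 10.15 and 11.10 in younger dogs. In metastatic tumors, 6 of the 7 older dogs lay below every younger dog for STAT5A. Its difference was -1.34 ± 0.33 (SE, limma adjusted p = 0.347), and 2 of its other probe sets had differences of -1.24 and -1.95, while the third lay at background.

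The other 8 genes of this set follow. ALDH7A1, an aldehyde dehydrogenase of lysine breakdown, had a difference of -1.00 ± 0.22 (SE), and its 5 probe sets ran from -1.05 to -0.94. COPG2, a coat protein of vesicles between Golgi and endoplasmic reticulum, had -0.75 ± 0.17, HEMK1, a methyltransferase of mitochondrial release factors, had -0.62 ± 0.15, and BBS5, part of a transport complex of cilia, had -0.56 ± 0.14. CCDC12, OSCP1 and CDADC1 had differences of -0.66, -1.47 and -0.54. For CDADC1 the probe set of second highest level had a difference of 0.04, so that its probe sets did not read the same. SLC1A2, a glutamate transporter, had -1.21 ± 0.29, but 20 of 27 tumors lay below the array median and the difference came to -2.14 in non-metastatic and -0.22 in metastatic tumors. The limma adjusted p of these 8 genes lay between 0.316 and 0.347.

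**Figure D1:**
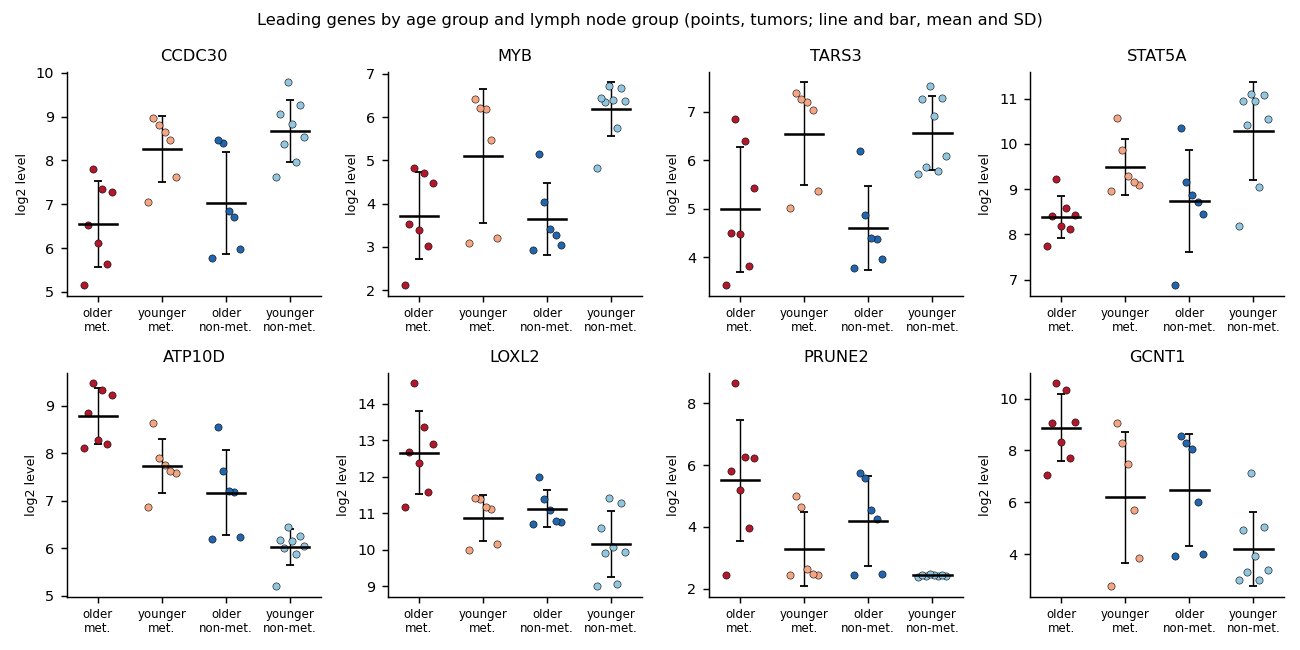
Log2 level of 8 leading genes in each tumor (points), by age group and lymph node group, with the mean (line) and SD (bar) of each group. All were chosen for the same sign in both lymph node groups. CCDC30, MYB, TARS3 and STAT5A have lower means in older dogs, and ATP10D, LOXL2, PRUNE2 and GCNT1 higher means. The ranges overlap for most, and none passed an adjusted p of 0.05.

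Among genes higher in older dogs in both lymph node groups, symbols beginning with LOC left out, ATP10D, a phospholipid flippase, had the smallest p. Its level ran from 6.20 through 8.20 to 9.48 in older dogs, against 5.20, 6.36 and 8.64 in younger dogs. The difference was 1.10 ± 0.23 (SE, limma adjusted p = 0.208), being 1.06 in metastatic and 1.15 in non-metastatic tumors. Both other ATP10D probe sets had differences of 0.95. LOXL2, a lysyl oxidase that cross-links collagen, ran from 10.70 through 11.59 to 14.57 in older dogs, against 8.99, 10.38 and 11.43 in younger dogs. All 13 older dogs lay above the median of the younger dogs for LOXL2, with a difference of 1.36 ± 0.33 (SE, limma adjusted p = 0.347).

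GCNT1, which branches O-linked sugar chains, had the largest difference of the set. Its level ran from 3.95 through 8.30 to 10.60 in older dogs, against 2.77, 4.43 and 9.07 in younger dogs, a difference of 2.47 ± 0.69 (SE, limma adjusted p = 0.502). PRUNE2 was read at background in all 8 younger non-metastatic dogs, where it lay between 2.37 and 2.48. In older dogs it ran from 2.45 through 5.18 to 8.65, and in all younger dogs from 2.37 through 2.45 to 4.99, a difference of 1.99 ± 0.50 (SE, limma adjusted p = 0.347). CALU, a calcium-binding protein of the endoplasmic reticulum, was higher by 0.71 ± 0.18 (SE, limma adjusted p = 0.355), and all 13 older dogs lay above the median of the younger dogs.

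The remaining genes of this set were SLC19A1, the reduced folate carrier, with a difference of 0.90, MICAL1, an oxidase of actin, with 0.83, SFXN1, a serine carrier of mitochondria, with 0.91, and SYT17, of the synaptotagmin family, with 1.16. UBE2E2, a ubiquitin-conjugating enzyme, had 0.83, NUS1, a subunit of dolichol synthesis, had 0.61, and ZNF687, a zinc finger protein, had 0.45. Their limma adjusted p lay between 0.347 and 0.555. The probe sets for these genes lay above the array median in all tumors except 6 for SLC19A1 and 2 for UBE2E2.

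The list of milk protein and secretion genes stood at the low side of the gene lists in older dogs. All 10 measured genes had a negative difference and 6 had an unadjusted p below 0.05, all 6 lower, against 4.22% of all genes. The median difference of the list was -1.16, against -0.0019 over all genes. It was -0.81 in metastatic and -1.32 in non-metastatic tumors, where the medians over all genes were -0.030 and 0.018. At an unadjusted p below 0.05, 4 genes were lower in metastatic and 2 in non-metastatic tumors. Of all genes, 3.02% and 4.97% were lower there. In metastatic tumors 2 of the 10 differences were positive, in non-metastatic ones 0. With grade as a covariate 4 and 1 were lower, and without dogs 14 and 22 the non-metastatic count was 1 (median -0.88). Of all 15115 genes, these fits had 612 in metastatic and 950 to 1055 in non-metastatic tumors at that p. None of the 10 passed the adjusted threshold, and the list and its direction were known from earlier results of these data.

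Beta-casein (CSN2), the main milk protein of the list, ran from 2.86 through 6.26 to 13.45 in older dogs, against 2.75, 10.90 and 15.45 in younger dogs. In metastatic tumors the age groups did not overlap: the 7 older dogs lay between 2.86 and 7.09, and the 6 younger dogs between 7.36 and 13.25. In non-metastatic tumors they did, since dogs 25 and 26 of the 8 younger dogs lay at 2.75 and 2.77. The difference of CSN2 was -3.23 ± 1.43 (SE, limma adjusted p = 0.709). LALBA, the regulator of lactose synthase, was read near background in 6 of the 7 older metastatic dogs, between 2.42 and 2.64, with 1 dog at 6.94. In younger metastatic dogs LALBA lay between 2.60 and 12.69, and its difference over all tumors was -3.11 ± 1.49 (SE, limma adjusted p = 0.741).

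XDH, a xanthine oxidoreductase needed for milk fat secretion, ran from 3.37 through 4.70 to 8.10 in older dogs, against 3.90, 7.76 and 10.04 in younger dogs, and 12 of 13 older dogs lay below the median of the younger dogs. Its difference was -1.99 ± 0.64 (SE, limma adjusted p = 0.610), and its other probe sets had -1.50 and -1.54. PLIN2, of milk fat droplets, had a difference of -1.02 ± 0.40, and STAT5B had -0.49 ± 0.23. LTF, the iron-binding lactoferrin, was measured at -0.75 ± 1.01 over all tumors, with 1.43 in metastatic and -2.81 in non-metastatic tumors. PRLR, the prolactin receptor, was not in this list but in that of sirtuins, FOXO and the growth hormone axis. Its difference was -1.72 (limma unadjusted p = 0.0115), and it did not pass the adjusted threshold.

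Of the luminal transcription factors, GATA3 had the smallest p of its list. It ran from 3.33 through 8.30 to 10.37 in older dogs, against 6.36, 10.43 and 13.28 in younger dogs, a difference of -2.59 ± 0.67 (SE, limma adjusted p = 0.386). In non-metastatic tumors the age groups did not overlap for GATA3: all 6 older dogs, from 5.44 to 10.37, lay below all 8 younger dogs, from 10.39 to 13.28. FOXA1 had a difference of -2.06 over all tumors, with -0.43 in metastatic and -3.59 in non-metastatic tumors. Over the 17 measured genes of the list the median was -0.28, and it ran in opposite directions, at 0.86 in metastatic and -1.33 in non-metastatic tumors. When single tumors were left out, the median over all tumors lay between -0.54 and 0.03, the highest without dog 22. That of metastatic tumors lay between 0.53 (without dog 6) and 1.07, and that of non-metastatic tumors between -1.72 and -0.58 (without dog 22). With grade as a covariate they were 0.39 and -0.99, and without dogs 14 and 22 that of non-metastatic tumors was -0.61. KRT18, a luminal keratin, had 1.29 in metastatic and -2.38 in non-metastatic tumors. SPDEF, a luminal transcription factor, had 0.58 in the probe set of highest level and -1.44 in that of largest variance.

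Among the hormone receptors, ESR1 was read mostly near background, whereas PGR averaged 6.99, above the array median. ESR1, the oestrogen receptor gene, lay at 2.19 to 2.34 in older dogs and 2.17 to 4.48 in younger dogs, so that 25 of 27 tumors were below the array median (difference -0.53, limma adjusted p = 0.656). PGR, the progesterone receptor gene, had a difference of -1.21 ± 0.91 (SE, limma adjusted p = 0.844), with 0.32 in metastatic and -2.64 in non-metastatic tumors. Of the 24 measured genes of the oestrogen and progesterone response, 0 were higher and 2 lower at an unadjusted p below 0.05, against 2.40% and 4.22% of all genes, these being MYB and ESR1.

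Glycolysis genes stood on the high side. Of 29 measured genes of hypoxia and glycolysis, 25 had a positive difference, 9 were higher at an unadjusted p below 0.05, against 2.40% of all genes, and 1 was lower. The median difference was 0.35, being 0.14 in metastatic (0.035 without dog 8) and 0.36 in non-metastatic tumors (0.22 without dog 14). None passed the adjusted threshold. At an unadjusted p below 0.05, metastatic tumors had 3 higher and 0 lower genes, against 3.04% and 3.02% of all genes. Non-metastatic tumors had 5 and 1, against 3.82% and 4.97%. With grade as a covariate these counts were 5 and 0, and 2 and 0. Without dogs 14 and 22, non-metastatic tumors had 1 and 1, with a median of 0.20. Of all 15115 genes, 612 had such a p in the metastatic fit with grade, and 950 to 1055 in these non-metastatic fits. LDHA, which makes lactate from pyruvate, ran from 13.20 through 13.74 to 14.22 in older dogs, against 12.49, 13.15 and 14.18 in younger dogs. All 13 older dogs lay above the median of the younger dogs, and the difference was 0.45 ± 0.14 (SE, limma adjusted p = 0.610).

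The other higher members covered several steps of the pathway. SLC16A3, the lactate exporter, had a difference of 1.61 ± 0.63, and CA9, the hypoxia-induced carbonic anhydrase, had 1.88 ± 0.79. PFKL, PFKFB3, GPI, ALDOA, PGK1 and PKM, enzymes of glycolysis or its control, had 0.67, 0.60, 0.26, 0.35, 0.51 and 0.90. The lower member was EGLN1, an oxygen sensor that marks HIF1A for breakdown, at -0.35 ± 0.12, with all 13 older dogs below the median of the younger dogs. HIF1A and VEGFA had differences of 0.01 and 0.13. The limma adjusted p of the 9 higher members and EGLN1 lay between 0.610 and 0.746. GAPDH could not serve here, since the probe set of that name lay below the array median in all 27 tumors.

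**Figure D2:**
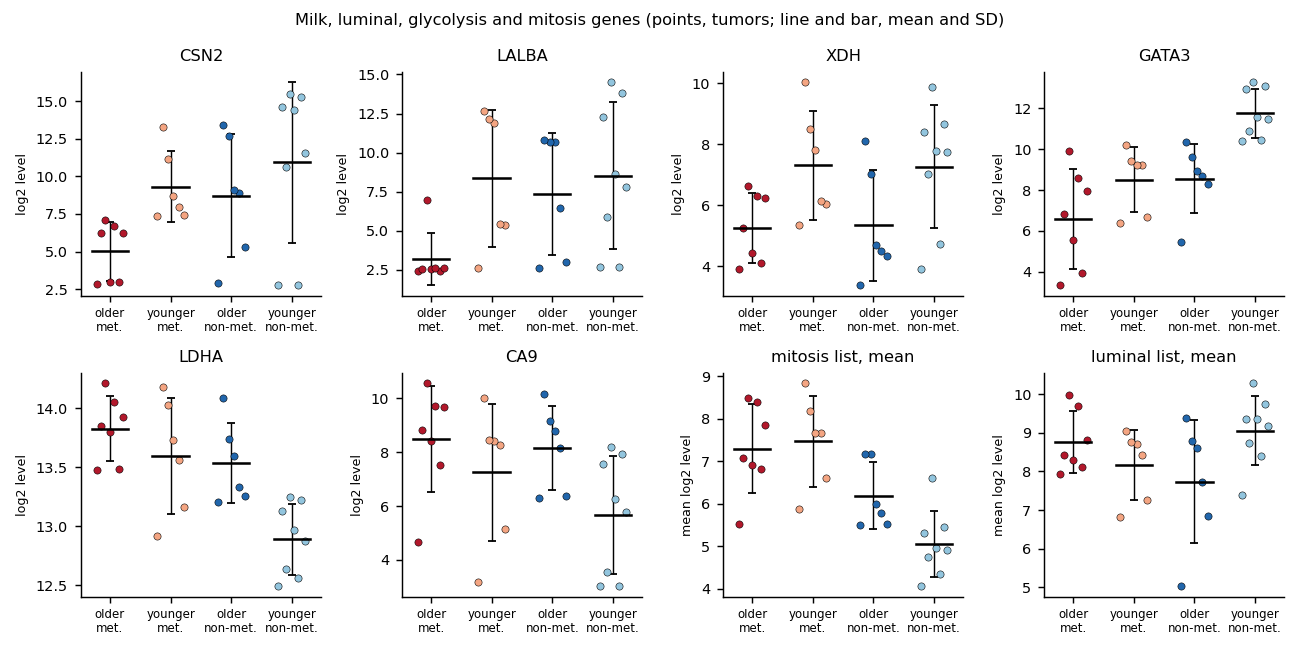
Log2 level of 6 genes and mean log2 level of the mitosis and luminal lists in each tumor (points), by age group and lymph node group, with the mean (line) and SD (bar). CSN2, LALBA, XDH and GATA3 have lower means and LDHA and CA9 higher means in older dogs in both lymph node groups, while the mitosis mean is higher in older dogs in non-metastatic tumors, with medians of 5.89 in older and 4.93 in younger dogs.

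Genes tied to ageing in other tissues were read in 4 lists, against 2.40% of all genes higher and 4.22% lower at an unadjusted p below 0.05. Of the 20 measured genes of cell cycle arrest and senescence, 1 was higher and 0 lower, with a median of -0.02. The 1 was CDKN1A, the p21 inhibitor, which ran from 8.81 through 11.23 to 13.17 in older dogs, against 7.92, 9.91 and 11.95 in younger dogs. Its difference was 1.17 ± 0.43 (SE, limma adjusted p = 0.635), and its 3 probe sets had 1.17, 1.36 and 1.12. CDKN1A had 0.64 in metastatic and 1.66 in non-metastatic tumors. CDKN2B, LMNB1 and TERT were read near background, with 26, 24 and 27 of 27 tumors below the array median.

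Of the 35 measured secreted factors of senescent cells, 1 was higher, SERPINE2 at 1.02, and 1 was lower, IGFBP2 at -1.34, shares near those of all genes (2.40% higher and 4.22% lower). The inflammatory cytokine IL6 had 0.72 ± 0.79 (SE, limma adjusted p = 0.885), IGF1 had 0.47 ± 0.69 (SE, limma adjusted p = 0.918), and GDF15 had 0.26 ± 0.53 (SE, limma adjusted p = 0.949), the last with 24 of 27 tumors below the array median. Of the 28 genes of sirtuins, FOXO and the growth hormone axis, 0 were higher and 4 lower, against 2.40% and 4.22% of all genes. These were SIRT1, a deacetylase, at -0.68 ± 0.19, the mitochondrial SIRT3 at -0.76 and SIRT4 at -0.48, and PRLR. SIRT1 ran from 4.62 through 5.29 to 6.29 in older dogs, against 5.23, 5.76 and 7.16 in younger dogs (limma adjusted p = 0.502). Of 17 telomere maintenance genes, 0 were higher and 1 lower, TERF2IP at -0.40.

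Lists of other cells that a tumor section can hold were read next. T and NK cell, B and plasma cell, endothelial, adipocyte and smooth muscle lists, with 22, 12, 15, 13 and 16 measured genes, had 0 genes at an unadjusted p below 0.05 in either direction, with medians from -0.0046 to 0.15 over all tumors. Some of these medians had opposite signs in the lymph node groups. For T and NK cells it was -0.32 in metastatic tumors (6 of 22 genes positive) and 0.38 in non-metastatic ones (20 of 22 positive), and without dog 22 the non-metastatic median was -0.084. That of smooth muscle was 0.30 in metastatic and -0.25 in non-metastatic tumors. The mean of the smooth muscle list lay between 7.21 and 10.27 in older dogs and between 7.50 and 10.06 in younger dogs. Of 30 genes of collagens and matrix, 25 had a positive difference, with a list median of 0.38. At an unadjusted p below 0.05, 2 were higher, LOX at 1.51 and LOXL2, against 2.40% of all genes. The list median was 0.55 in metastatic and 0.26 in non-metastatic tumors, and -0.15 in the latter without dogs 14 and 22. The mean of that list ran from 7.42 through 10.58 to 12.64 in older dogs, against 8.90, 9.74 and 10.96 in younger dogs. Its part in the difference of LOXL2 was not tested. Of 20 macrophage and myeloid genes 1 was higher, C1QB, a complement component, at 0.76, against 2.40% of all genes. Their median was 0.22 in metastatic and 0.13 in non-metastatic tumors, and -0.42 in the latter without dogs 14 and 22.

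Each lymph node group was then compared alone, to see whether its direction held in the other. In metastatic tumors, 915 genes (6.05%) had an unadjusted p below 0.05, 459 of them (3.04%) higher and 456 (3.02%) lower in older dogs, and 0 of 15115 passed the adjusted threshold (limma, lowest adjusted p 0.518). In non-metastatic tumors there were 1329 (8.79%), 578 (3.82%) higher and 751 (4.97%) lower, and again 0 of 15115 passed (limma, lowest adjusted p 0.167). No tumor is shared between these comparisons. The sign was the same in both for 6510 genes, or 43.1%. Of the 459 genes higher in older dogs in metastatic tumors 35.1% had the same sign in non-metastatic tumors, and of the 456 lower genes 49.1%. Of the 578 genes higher in non-metastatic tumors 45.3% had the same sign in metastatic tumors, and of the 751 lower genes 57.4%.

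The unadjusted lists of the lymph node groups shared 91 genes, which is 9.95% of the metastatic and 6.85% of the non-metastatic list, and 46 of the 91 had the same sign. The age difference itself was tested between the lymph node groups with an interaction term. There 1324 genes (8.76%) had an unadjusted p below 0.05, and 0 of 15115 passed the adjusted threshold (limma, lowest adjusted p 0.126).

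**Figure D3:**
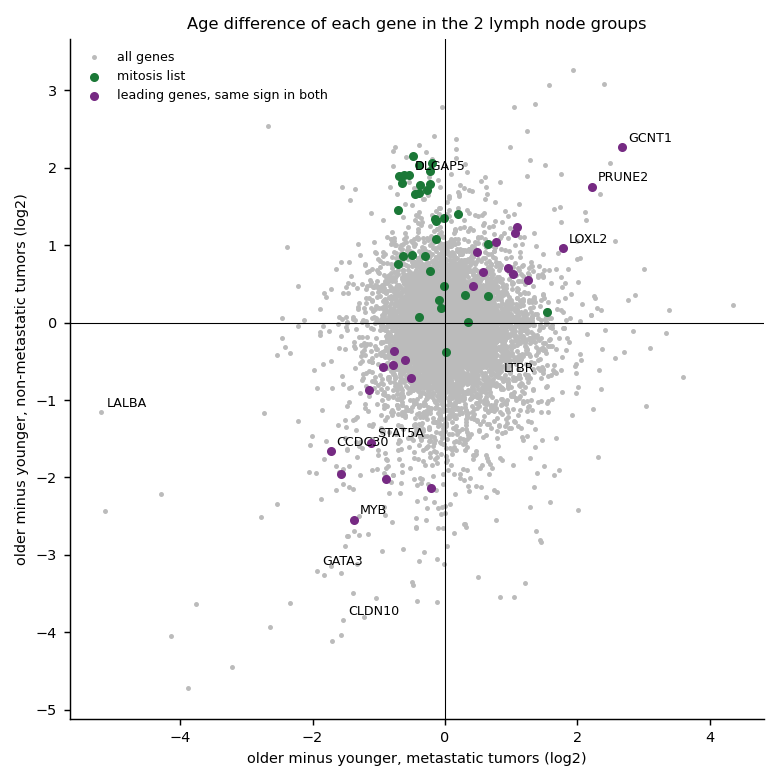
Difference between older and younger dogs (log2) in metastatic tumors (x axis) and in non-metastatic tumors (y axis) for all 15115 genes (grey), with the mitosis list (green) and the leading genes chosen for the same sign in both (purple). The sign agreed for 43.1% of genes, and of the 34 mitosis genes 33 lie above 0 on the y axis and 7 on the x axis.

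Mitosis genes had the highest median of all lists in non-metastatic tumors. In non-metastatic tumors the median difference of its 34 measured genes was 1.32, with 18 higher in older dogs and 0 lower at an unadjusted p below 0.05, against 3.82% of all genes higher. In metastatic tumors the median was -0.22, with 0 higher and 0 lower, and with single tumors left out it lay between -0.62 and 0.0057, the highest without dog 6. The difference was positive for 33 of the 34 genes in non-metastatic and for 7 in metastatic tumors. The interaction had an unadjusted p below 0.05 for 12 of the 34 genes, against 8.76% of all genes, and for none of them an adjusted p below the threshold. The mean of the list ran from 5.49 through 5.89 to 7.17 in older non-metastatic dogs, against 4.05, 4.93 and 6.61 in younger non-metastatic dogs. In metastatic dogs it ran from 5.52 through 7.07 to 8.48 in the older and from 5.87 through 7.66 to 8.83 in the younger.

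Single genes of the list, whose values enter its median, are given next. DLGAP5, a spindle protein, had a difference of 1.90 ± 0.53 in non-metastatic and -0.54 in metastatic tumors. KIF11, the spindle motor, had 2.15 ± 0.63 in non-metastatic and -0.48 in metastatic tumors, and CDK1, the kinase that starts mitosis, had 1.89 ± 0.58 in non-metastatic and -0.70 in metastatic tumors. Of the DNA replication genes, 16 of 38 were higher and 0 lower in older non-metastatic dogs, against 3.82% and 4.97% of all genes, with a median of 0.70 there and of -0.29 in metastatic tumors (-0.033 without dog 6). CDC45, a helicase factor, had 1.84, PCNA, the polymerase clamp, had 0.93, and RRM2, which makes deoxynucleotides, had 1.72 in non-metastatic tumors.

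The study's own clustering placed some older non-metastatic tumors with the metastatic ones. Dogs 14 and 22 had these tumors, and leaving them out was chosen after the data were seen. Dog 22 later developed lung metastases, although its lymph nodes were negative at resection. Without dogs 14 and 22, the median of the mitosis list in non-metastatic tumors was 0.53, with 5 of 34 genes higher. That of DNA replication was 0.43, with 5 of 38 higher. With grade as a covariate, the mitosis median was 1.09 with 10 genes higher, and that of DNA replication 0.47 with 8 higher. Over all 15115 genes, these 2 fits had between 950 and 1055 at an unadjusted p below 0.05 in either direction. The fit of all non-metastatic tumors without grade had 1329. Grade II made up 1 of 6 older and 4 of 8 younger non-metastatic tumors, and its part in these values was not tested further.

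Interferon response genes had a negative median in non-metastatic tumors. Of 22 measured genes, 0 were higher and 4 lower in older non-metastatic dogs, against 4.97% of all genes lower, and the median was -0.64. IRF9 and STAT2, which carry the interferon signal to the nucleus, had -0.53 and -0.71 there, and OAS1 and XAF1 had -0.90 and -0.99. With grade as a covariate or without dogs 14 and 22, 2 genes were lower, with medians of -0.43 and -0.49. Those 2 fits had between 950 and 1055 of all 15115 genes at an unadjusted p below 0.05 in either direction. In metastatic tumors the median was 0.14, with 0 genes in either direction, and with single tumors left out it lay between -0.18 (without dog 7) and 0.40, so that its sign turned. In metastatic tumors, 4 of 20 macrophage and myeloid genes were higher in older dogs and 0 lower, against 3.04% of all genes higher. These were C1QB at 1.27, C1QC at 0.95, TREM2 at 1.10 and SPI1, the myeloid master regulator, at 1.22. They had 0.27, 0.19, -0.18 and -0.40 in non-metastatic tumors.

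**Figure D4:**
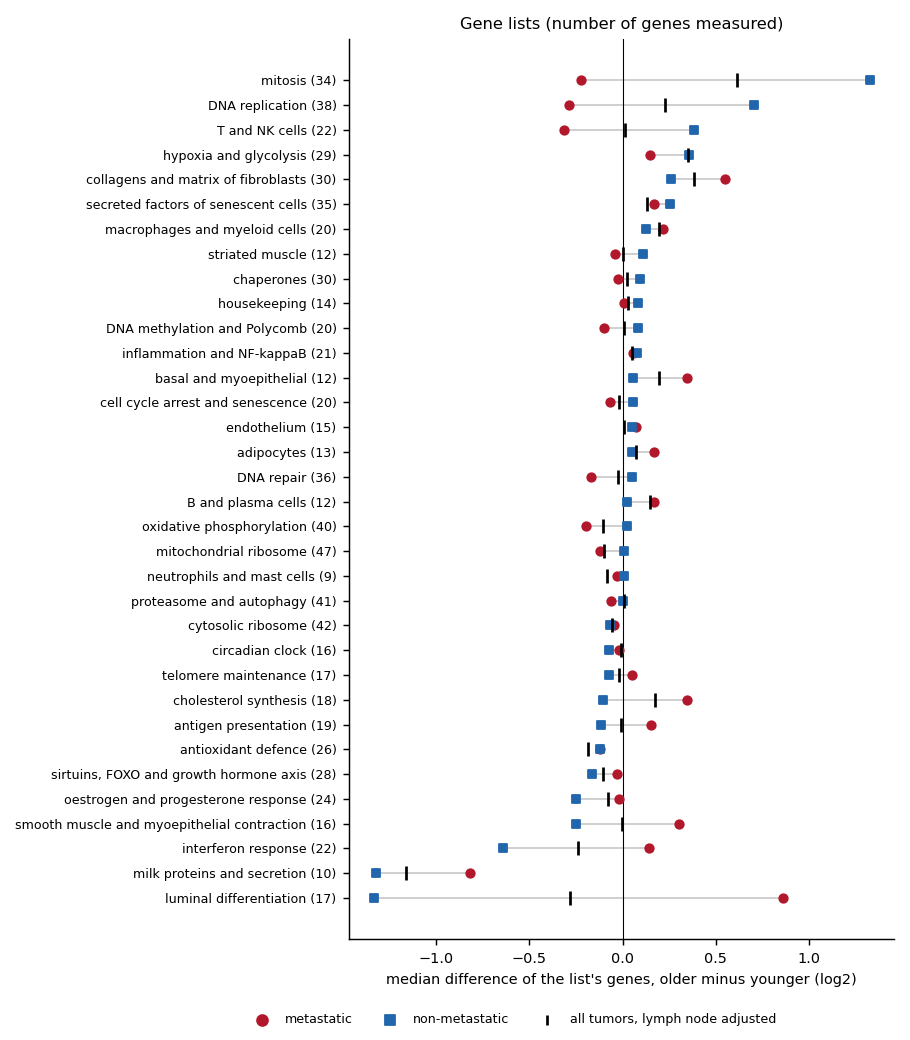
Median difference between older and younger dogs (log2, x axis) of the genes of each of 34 lists, with the number of genes measured in brackets, in metastatic tumors (circles), non-metastatic tumors (squares) and all tumors with lymph node status held (bars). The circle and square of mitosis lie at -0.22 and 1.32, and both lie below 0 for milk proteins and secretion.

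The genes of smallest p in 1 lymph node group alone included MYB and CALU, described above. In metastatic tumors TBCK, GLMN and PEBP1, an inhibitor of RAF kinase, were lower, by -0.79, -0.59 and -0.72, and CAD, which starts pyrimidine synthesis, RING1, a Polycomb ubiquitin ligase, and LOC608169 were higher, by 0.86, 0.90 and 1.48. Of these 6, only TBCK, PEBP1, CAD and LOC608169 had an unadjusted p below 0.05 with both groups together. In non-metastatic tumors MYB, CLDN10, a claudin of tight junctions, and IGF1R, the receptor of insulin-like growth factor, were lower, by -2.54, -3.84 and -1.05. CLDN10 ran from 2.51 to 5.63 in the 6 older non-metastatic dogs, against 4.46 to 8.62 in the 8 younger non-metastatic dogs. CALU, ATP5J2, of the ATP synthase, and ITCH, a ubiquitin ligase, were higher there, by 0.92, 0.40 and 0.92. IGF1R had the opposite sign in metastatic tumors, at 0.63.

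The smallest interaction p belonged to OCEL1, LTBR and PPP2R3C. OCEL1 had 0.71 in metastatic and -0.35 in non-metastatic tumors. LTBR, the lymphotoxin beta receptor, had 0.80 in metastatic and -0.71 in non-metastatic tumors. The 7 older metastatic dogs lay between 9.02 and 10.12 for LTBR, against 8.36 to 9.11 in the 6 younger metastatic dogs, and the 6 older non-metastatic dogs between 8.25 and 9.15, against 8.91 to 10.09 in the 8 younger non-metastatic dogs. PPP2R3C, a regulatory subunit of phosphatase 2A, had -1.10 in metastatic and 0.39 in non-metastatic tumors. In metastatic tumors all 7 older dogs, from 8.58 to 10.03, lay below all 6 younger dogs, from 10.15 to 11.30, for PPP2R3C. The limma adjusted p of the interaction was 0.126 or above for every gene.

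Age was also fitted as a number of years in place of the 2 age groups. In that fit 9 of 15115 genes (0.0595%) passed an adjusted p of 0.05 (limma). COPG2 fell by 0.19 and RBM4B, an RNA-binding protein, fell by 0.12 on the log2 scale per year (limma adjusted p = 0.0380 for both). LOXL2 rose by 0.36, PRUNE2 by 0.54, DCBLD1 by 0.35, SIN3B, a corepressor of transcription, by 0.23, PAPSS2, which makes the sulfate donor, by 0.31 and S1PR2, a sphingosine phosphate receptor, by 0.14 per year, all with an adjusted p of 0.0380. TMC8 rose by 0.11 per year with an adjusted p of 0.0184. These genes were named because they passed the test, after their values were seen.

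Whether these genes passed changed with the dogs and the covariates of the fit, which were varied after the data were seen. Without the 3 dogs of 16 years, all metastatic and of grade II, 0 genes passed (limma, lowest adjusted p 0.482, and 558 higher and 477 lower at an unadjusted p below 0.05). The slopes were then -0.19 for COPG2, -0.14 for RBM4B, 0.44 for PRUNE2 and 0.27 for LOXL2, and those of the other 5 genes were 39.1% to 65.6% of their size with all dogs, the smallest share being that of PAPSS2. With grade as a covariate 0 passed, with a limma adjusted p of 0.0525 for TMC8 and 0.0786 for the other 8, while the 9 slopes were 91.1% to 103% of their size without grade. When 1 tumor was left out, 0 or 1 gene passed in 17 of 27 cases, and 15 passed without dog 22. PAPSS2 lay at 4.97, 5.29 and 5.71 in these 3 dogs, against 2.30 to 4.15 in the other 4 older metastatic dogs and 2.08 to 2.36 in all other tumors. TMC8, S1PR2, SIN3B and PAPSS2 lay below the array median in 26, 25, 23 and 22 of 27 tumors. COPG2 also passed when dogs of 13 years or more were set against those of 12 or less, with -0.95 and an adjusted p of 0.0450.

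**Figure D5:**
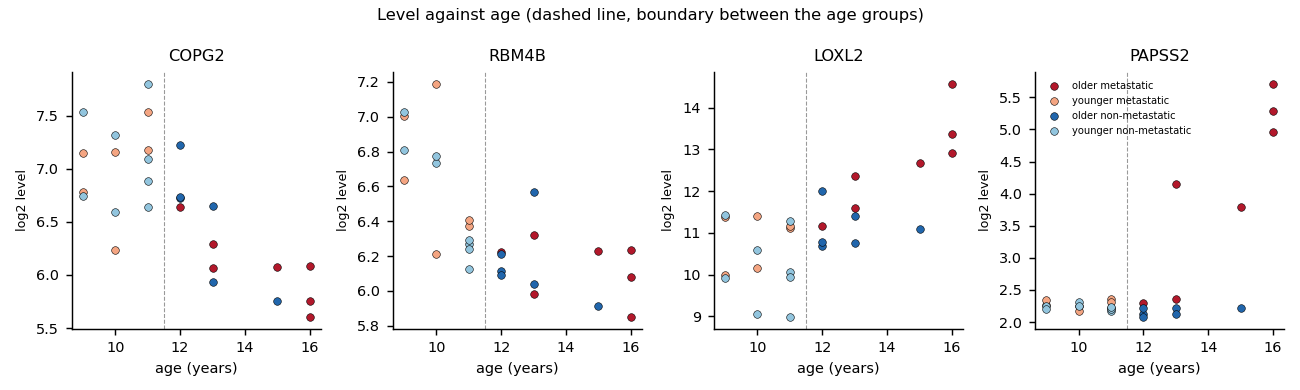
Log2 level of 4 genes against age in years (x axis) in each tumor, coloured by age group and lymph node group, with the boundary between the age groups dashed. COPG2 and RBM4B have lower values at higher ages, and LOXL2 and PAPSS2 have their highest values in the metastatic dogs of 16 years.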

How the data were processed

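RNA of 27 canine mammary carcinomas was hybridised to Affymetrix canine arrays, 1 per tumor. The authors processed the scans in Partek by gcRMA (RMA background correction, quantile normalization, median polish) and deposited log2 values for 43035 probe sets, between 0.29 and 16.61. After 175 control probe sets were left out, 42860 were fitted. GEO's platform annotation gives 29254 of them 1 gene symbol, 439 several and 13167 none, and a gene was read by its probe set of highest mean, which left 15115 genes. Values below the array median of 3.66 are called near background where they lie at the floor of the scale.

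Limma 3.58.1 in R 4.3.3 was fitted with age group (12 years or more against 11 or less, by the labels) and lymph node status. Adjusted p-values are Benjamini-Hochberg over 15115 genes. The fit was repeated within each lymph node group, with an interaction, and with age as a number. The study compared lymph node groups by analysis of variance, and its plain least squares form was an alternative. The other alternatives were array weights, added covariates, other age boundaries, other scalings, other gene summaries, and each tumor left out. Sample measures were compared by a two-sided permutation test within lymph node groups with 100000 draws. The fit was tested on simulated data. Figures were drawn with Python 3.11.15 and matplotlib 3.10.9.

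Named genes were the 12 of smallest p in each direction with the same sign in both lymph node groups, 10 ageing and hormone genes where measured (CDKN2A had no probe set of that single symbol), the leading members of each of 34 gene lists, the 3 of smallest p in each direction within each lymph node group and the 3 of smallest interaction p. Symbols beginning with LOC were left out of the first set only. The 34 lists held 897 genes, of which 788 were measured. The comparison, the lists and the rules were chosen with earlier results of these data known. Dogs are numbered as in the study's list of animals, matched to the samples by the breed, age, tumor size and grade in the labels, and the grade of dog 25 was taken from the labels, where the sources differ. The number of arrays limits the precision, and each value is 1 array of 1 tumor.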

Additional observations from a re-analysis of the deposited data

Results flagged for a closer look

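Single tumors far from the others of their group of 6 to 8 were looked for in 108 groups of values (24 leading genes, the array upper quartile, the GAPDH 3′ to 5′ difference and the mitosis mean, in 4 groups each), where chance alone flags about 1 in 20. Such tumors were found in 7. In older non-metastatic dogs, SLC1A2 stood at 3.16 in dog 27, with the next tumor at 2.55, and CDADC1 at 6.60 in dog 18, with the next at 7.50. In younger metastatic dogs, CALU stood at 12.97 in dog 2, with the next at 11.76. In younger non-metastatic dogs, ATP10D stood at 5.20 in dog 25 (next 5.87), ALDH7A1 at 12.37 in dog 24 (next 11.65), and MICAL1 at 4.18 (next 4.84) and NUS1 at 5.95 (next 6.79) in dog 17. No interaction of age with lymph node status passed the adjusted threshold in limma for any named gene.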

How the results depend on the processing

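No paired analysis was possible because the replicate numbers only name tumors of different dogs. The absence of genes past an adjusted p of 0.05 (limma) in the main comparison held in all alternatives except those given here. Age as a number gave 9 such genes and a boundary at 13 years gave 1, COPG2. With single tumors left out the count lay between 0 and 1, the 1 being MYB without dog 2 (adjusted p = 0.0488). Genes at an unadjusted p below 0.05 counted 363 higher and 638 lower in the main comparison, 694 higher and 576 lower with age as a number (54.6% higher), 530 and 495 at a boundary of 13 years (51.7% higher), 558 and 477 with age as a number and no dogs of 16 years, 200 higher and 329 lower with dogs of 13 years or more against 10 or less (17 tumors), 226 higher and 227 lower in the 16 tumors of grade III, and 899 higher and 1561 lower among all 42860 probe sets. Under the scaling that repeats quantile normalization the higher share was 47.4%, against 36.3%.

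Within metastatic tumors the unadjusted count lay between 594 (without dog 9) and 1638 (without dog 7), and the adjusted count between 0 and 1 (RLIM without dog 1). Within non-metastatic tumors the adjusted count lay between 0 and 3 (3 without dog 27, 2 without dog 15 and 1 without dog 25, with MYB or CLDN10 among them). The interaction count was 761 with grade as a covariate. The 9 genes of age in years became 0 without the dogs of 16 years and 0 with grade, and lay between 0 and 15 with single tumors left out, at 0 without dog 3 or dog 8 and at 15 without dog 22. The cause of these changes was not tested. Leaving out the dogs of 16 years, keeping grade III tumors alone, and the leave-outs and grade in the fit by year were chosen after seeing the data.

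Of 60 named genes, 7 changed sign in some alternative, 1 of them a leading gene: CDADC1 was 0.035 and SPDEF was -1.44 in the probe set of largest variance, TERT was 0.0059 over the mean of its probe sets and 9.4e-05 by year without the dogs of 16 years, GDF15 was -0.043 by year and -0.064 at 13 years or more against 10 or less, IGF1 was -0.0087 in grade III tumors, and PGR was 0.013 at a boundary of 13 years. With single tumors left out GDF15 lay between -0.12 and 0.59 and LMNB1 between -0.29 and 0.026. Genes near background are limited by the floor of the scale.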

Other observations

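A difference past 2 on the log2 scale in both was found for 13 of 15115 genes, 10 of them lower and 3 higher in older dogs, and these were chosen after their values were seen. PIP, a prolactin-induced secreted protein, ran from 2.75 through 9.34 to 14.11 in older dogs, against 7.88, 14.36 and 15.44 in younger dogs, a difference of -3.69 ± 1.17 (SE, limma adjusted p = 0.610). ABCC11, a transporter that human apocrine glands use for secretion, ran from 2.22 through 6.95 to 13.05 in older dogs, against 5.19, 12.55 and 15.01 in younger dogs, with -4.10 ± 1.09 (SE, limma adjusted p = 0.425). BCHE, a cholinesterase, HPX, the haem carrier hemopexin, CES1, a carboxylesterase, and KLKB1, a plasma prekallikrein, had -4.31, -3.85, -3.31 and -3.01. Within each age group these genes spanned most of the scale, as HPX did from 2.82 to 13.07 in older dogs and from 3.15 to 14.77 in younger dogs. The others that were lower were CSN2, CCDC160 and 2 genes with LOC symbols. The 3 higher genes were TKTL1, related to transketolase, with 2.75, GCNT1, and DSG3, a desmosome cadherin of stratified epithelia, with 2.27.

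Because BBS5 stood among the leading genes, a list of 80 cilium and intraflagellar transport genes was written after these values were seen, and 71 were measured. Of these, 1 was higher and 14 were lower in older dogs at an unadjusted p below 0.05, against 2.40% and 4.22% of all genes, with a median difference of -0.11. TTC21A, IFT74, CEP290, DYNLT2B and IFT46 had -0.98, -0.69, -0.68, -0.65 and -0.36, and RSPH1 was the higher one, at 0.18. In metastatic tumors 4 were lower and 0 higher, against 3.02% of all genes lower, and in non-metastatic tumors 12 were lower and 0 higher, against 4.97%. No test of the list was made.

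The remaining lists are given by their genes at an unadjusted p below 0.05, against 2.40% of all genes higher and 4.22% lower. Of 41 proteasome and autophagy genes 2 were higher and 5 lower, among them PSMC5, a proteasome ATPase, at -0.32, ATG7 at -0.52 and SQSTM1, an autophagy receptor, at 0.88. Of 26 antioxidant genes 3 were lower, GPX3 at -2.84, GCLM at -0.86 and KEAP1 at -0.34, and 0 higher. DNA repair had 3 lower genes of 36, TP53BP1, XRCC5 and LIG4, and oxidative phosphorylation, the mitochondrial ribosome and the circadian clock had 2 lower each. Cholesterol synthesis and the cytosolic ribosome had 1 lower each, and chaperones, DNA methylation and Polycomb genes, and basal cell genes had 1 in each direction. Inflammation, antigen presentation, and neutrophil and mast cell lists had 0. The striated muscle and housekeeping lists had 1 higher each, CASQ1 and PGK1.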
